A study of Mus musculus with 3 samples.

Results

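The cells described here are cells of mouse colon organoids with a high level of Lgr5, Smoc2 and Axin2. They are called slow-cycling only because their Mki67 and Top2a lay below the median of their library. They were chosen in each of 3 libraries by a rule on 5 genes. A barcode entered the filtered set with 5000 or more unique molecular identifiers (UMIs, each 1 captured transcript) and 400 or more genes, if no more than 15% of its UMIs were mitochondrial. Of these, the cells whose Mki67 and Top2a UMIs per 10000 lay below the median of their library (7.39 untreated, 9.80 at 24 h and 9.83 at 48 h) were scored by the mean of ln(1 + UMIs per 10000) over Lgr5, Smoc2 and Axin2. The top 25% by score were selected. They number 132 of 1058 filtered cells in the untreated library, 114 of 917 after 24 h of IFN-γ and 366 of 2934 after 48 h, or 612 of 4909 in all. Their number is therefore fixed by the rule and carries no information on how many such cells each culture held.

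The organoids were grown from crypts of the mouse colon, as epithelium without stroma, and each condition is 1 droplet library. The untreated organoids were kept in full medium. The other cultures received 50 ng/ml mouse IFN-γ, for 24 h or for 48 h, in the same medium. Full medium supplied sWnt, the GSK3 inhibitor CHIR-99021, R-spondin 1 conditioned medium, EGF, noggin and the TGF-β receptor inhibitor A83-01 to all 3 cultures, so Wnt signalling was driven from outside in every group. Cells that took up DAPI were removed by FACS before loading. The selected cells hold 4470838, 7608403 and 4741486 UMIs in the untreated, 24 h and 48 h libraries. The study's methods name C57bl/6 mice and tdTomato reporter mice carrying Krt20CreErt2 or Axin2CreErt2 as sources of tissue for organoids, its account of the organoid cultures names wild-type donors, and the labels do not say which mice these 3 libraries came from. No library was repeated. All intervals below are 95% intervals within libraries. They cover counting error for ratios of single genes, sampling of cells for shares, and spread over genes for list medians. None covers variation between cultures, and no difference was tested across cultures.

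In the colon, Lgr5+ cells at the crypt base renew the epithelium. Lgr5 is a receptor for R-spondins, which keep Wnt receptors on the membrane by removing the ubiquitin ligases Rnf43 and Znrf3, and Lgr5, Axin2, Rnf43 and Znrf3 are themselves turned on by Wnt signalling. Axin2 is part of the complex that destroys β-catenin, and Smoc2 is a secreted matrix protein enriched in Lgr5+ cells. Cells leaving the crypt base divide, lose these transcripts and become absorptive colonocytes or secretory cells.

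Promoter sequence was looked up for the rule genes and the stem and Wnt target genes. TCF/LEF factors bring β-catenin to DNA through a core of the letters CTTTGA, read on either strand as CTTTGA or TCAAAG. The 250 bases before the annotated start are shown for 2 Wnt target genes that differ in this core, Axin2 from the rule and Sp5, a transcription factor gene that was not in it. Both come from RefSeq on GRCm38.p6, 5′ to 3′ on the plus strand, and capitals mark the core. The Axin2 window is chr11:108920099-108920348 and the Sp5 window is chr2:70474673-70474922.
Axin2: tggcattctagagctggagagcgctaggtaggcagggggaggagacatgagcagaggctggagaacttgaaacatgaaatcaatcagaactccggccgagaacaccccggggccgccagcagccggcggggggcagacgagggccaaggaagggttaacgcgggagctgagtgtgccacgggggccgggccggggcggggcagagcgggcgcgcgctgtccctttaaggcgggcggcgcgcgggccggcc
Sp5: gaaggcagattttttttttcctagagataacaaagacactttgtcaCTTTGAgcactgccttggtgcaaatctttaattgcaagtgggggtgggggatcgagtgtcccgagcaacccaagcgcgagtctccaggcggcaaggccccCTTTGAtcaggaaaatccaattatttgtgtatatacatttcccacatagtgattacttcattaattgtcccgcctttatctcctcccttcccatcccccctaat
The Sp5 window held 2 copies of the core, starting 204 and 104 bases before the start, and the Axin2 window held none. Among all 32851 RefSeq promoter windows of this length, 13.8% held the core at least once and 1.37% held it 2 or more times. Of the 28 genes looked up, from the rule and from the list of stem and Wnt target genes, 20 were matched among the windows used, with 32 windows (of the 3 genes of the score Axin2 was matched, and Lgr5 and Smoc2 were not), and 4 windows (12.5%) held the core, a share near that of all windows used. A match says only that these letters are present.

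The label of the cells was checked against markers. All 8 epithelial genes of the list, among them Epcam, Cdh1 and Krt8, were present, with a sum of 6827, 5407 and 5378 CPM (UMIs per 1000000, over the summed UMIs of the selected cells) in the untreated, 24 h and 48 h libraries. The 12 immune genes summed to 4.47, 3.15 and 4.85 CPM, with Cd68 the highest and Ptprc and Cd3e at 0 in each library. The 12 stromal genes summed to 3.58, 2.10 and 0.633 CPM, with Col1a1, Col1a2 and Col3a1 at 0. The 12 tuft cell genes summed to 3.80, 8.67 and 9.07 CPM, led by Pou2f3, with Dclk1 and Trpm5 at 0 untreated and at 24 h. The cells were thus epithelial by these lists, and the name "stem-like" rests on the markers of the rule and on the stem genes described below. "Slow-cycling" is relative to the library: Mki67 had at least 1 UMI in 80.3%, 90.4% and 77.3% of the selected cells, and only 6, 5 and 13 cells lacked both Mki67 and Top2a. The name rests on these 2 genes, and the S phase genes described below were not low as a group. The rate of division was not measured.

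The 3 score genes set the selection, so their values describe it. Lgr5 (chr10:115450311-115587780, minus strand, GRCm38) reached 389, 157 and 244 CPM in the selected cells of the untreated, 24 h and 48 h libraries, against 128, 43.0 and 72.6 CPM in all other filtered cells. Smoc2 (chr17:14279506-14404790, plus strand) reached 193, 63.7 and 101 CPM against 46.6, 16.4 and 33.2 CPM. Axin2 (chr11:108920349-108950783, plus strand) reached 168, 95.0 and 108 CPM against 87.4, 58.3 and 68.3 CPM. All 3 genes were higher in the untreated than in either treated library, in the selected and in the other cells. Barcodes under 2000 UMIs, which can hold free RNA, gave 30.4, 9.88 and 11 CPM of Lgr5 and 58.9, 43.3 and 47.5 CPM of Axin2.

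Not every selected cell carried all 3 transcripts. In the untreated, 24 h and 48 h libraries all 3 were seen in 87, 71 and 115 selected cells, 2 of 3 in 41, 27 and 195, and 1 of 3 in 4, 16 and 56. After thinning each cell to 5000 UMIs, Lgr5 was found in 78.8% of the untreated selected cells (interval 70.8 to 85.4%), in 47.4% at 24 h (37.9 to 56.9%) and in 69.9% at 48 h (65.0 to 74.6%). Without thinning the shares were 93.2%, 84.2% and 87.4%. In the slow-cycling cells that were not selected the thinned shares were 11.6%, 4.65% and 11.4%, at a median depth before thinning of 44152, 66198 and 12329 UMIs, a level that can include free RNA. At the limit of the selection the lowest selected scores were 0.613, 0.398 and 0.504 and the next scores outside were 0.603, 0.392 and 0.503, so no gap separated the selected cells from the rest.

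Depth and mitochondrial share differed between the selected and the other cells, and did so differently in each library. The selected cells had a median of 14942.5 UMIs untreated, 62125 at 24 h and 8341 at 48 h, against 36376, 69584 and 11539 in the other filtered cells. Their median mitochondrial share was 6.42%, 2.08% and 7.0%, against 4.71%, 2.13% and 5.96%. With these filters they were shallower and richer in mitochondrial UMIs in the untreated and 48 h libraries but closer to the other cells at 24 h. Their depth moved with the filter: selected among cells with at most 10% mitochondrial UMIs, they had a median of 45011 UMIs untreated and 9831 at 48 h, and with a minimum of 10000 UMIs, 37225 and 18728.5. Their median mitochondrial share moved too, to 3.71% untreated and 5.8% at 48 h under the first of these filters, and to 5.39% and 3.62% under the second. The cycling cells with a score at least as high as the lowest selected one (255, 155 and 568 cells) had still higher mitochondrial shares of 7.78%, 2.52% and 7.68%. The part of depth and mitochondrial share in the results below was not tested beyond the alternative settings given with them. Doublets were not called. The filtered cells of the libraries shared 1 barcode (untreated and 24 h), 4 (untreated and 48 h) and 1 (24 h and 48 h), and the selected cells shared none.

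**Figure D1:**
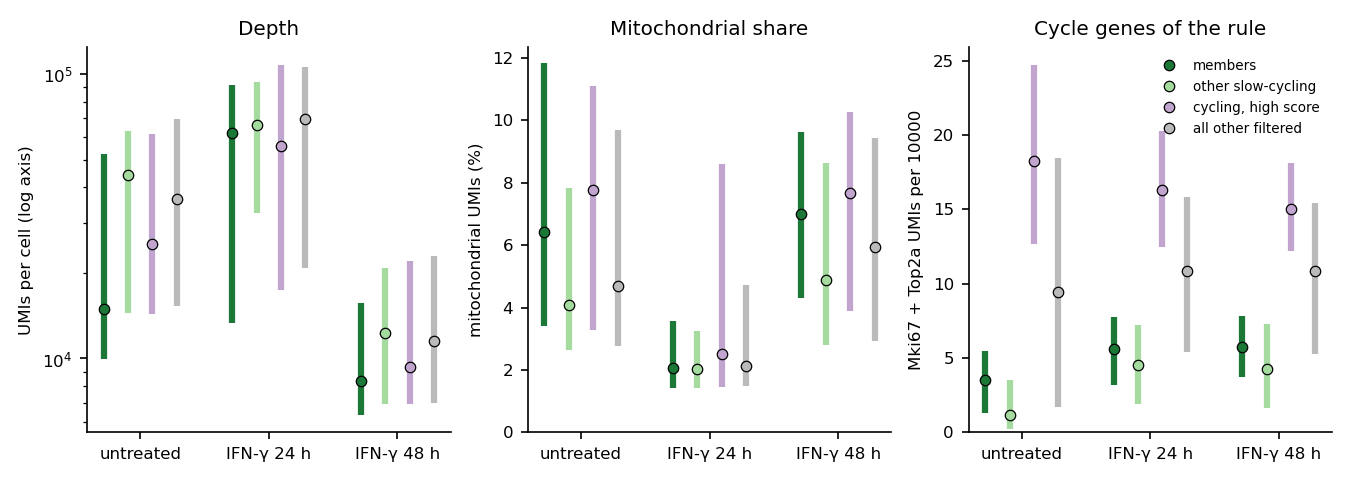
Median (point) and quartiles (bar) of UMIs per cell on a log axis, mitochondrial share in percent, and Mki67 plus Top2a UMIs per 10000, for the selected cells (members), other slow-cycling cells, cycling cells with a high score and all other filtered cells of each library. The selected cells are shallowest against the rest in the untreated library (medians of 14942.5 and 36376 UMIs), and their Mki67 plus Top2a medians (3.53, 5.58 and 5.75 per 10000) lie above those of the other slow-cycling cells (1.14, 4.50 and 4.25).

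Genes outside the rule were compared with the library's other filtered cells, over the 8729 genes that averaged 10 CPM or more across the 6 profiles (selected and other cells of each library). Because the members were chosen on these same cells, the differences are descriptions. The filter averages both groups, so a gene could pass through the group where it was high and then had to differ in that direction. Of the 8729 genes, 4 (0.0458%) were at least 2-fold higher in the selected cells of all 3 libraries and 14 (0.16%) were at least 2-fold lower. By any amount, 33.3% of genes were higher and 22.1% lower in all 3 libraries, and the median gene differed by 0.04, 0.02 and 0.04 on the log2 scale. The counts past 2-fold moved with the definition of the cells: scored after thinning to 5000 UMIs, which kept 61.4%, 56.1% and 62.8% of the selected cells, 7 genes were higher and 3 lower, and without the 48 h library 23 and 44.

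Stem and Wnt target genes were higher in the selected cells. Of 25 genes on this list, 15 passed the 10 CPM filter, and 13 of them were above the other cells in all 3 libraries, none by 2-fold in all. Their median log2 difference was 0.66 untreated (0.37 to 0.93), 0.43 at 24 h (0.26 to 0.48) and 0.39 at 48 h (0.13 to 0.51). Scaled by TMM factors, which set profiles to a trimmed mean of log ratios and lower each difference here by 0.14, 0.17 and 0.11, 10 of the 15 stayed above 0 in all 3 libraries and the medians were 0.52, 0.26 and 0.27, beside all-gene medians of -0.10, -0.15 and -0.07. The 10 genes below the filter included Notum and Wif1, secreted Wnt inhibitors with at most 1 UMI in the selected cells of any library.

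Both ligases that remove Wnt receptors from the membrane were among the higher genes. Rnf43, the ubiquitin ligase that removes Frizzled receptors, was at 282, 114 and 248 CPM in the selected cells and at 182, 95.0 and 184 CPM in the other cells. Its log2 difference was 0.64 untreated (0.55 to 0.72), 0.27 at 24 h (0.16 to 0.37) and 0.43 at 48 h (0.34 to 0.52). Znrf3, its homologue, was at 181, 106 and 237 CPM against 106, 77.0 and 169 CPM. The difference was widest in the untreated library for both.

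Several list genes for membrane proteins, Lrig1, Rgmb, Tnfrsf19, Slc12a2 and Ephb3, were also higher in each library. Lrig1, which restrains EGF receptors, was at 403, 119 and 191 CPM against 212, 84.4 and 134 CPM, a log2 difference of 0.93, 0.49 and 0.51. Rgmb, a BMP co-receptor, was at 76.9, 18.0 and 29.7 CPM against 32.6, 12.9 and 20.9 CPM. Tnfrsf19, also known as Troy, was at 20.4, 9.99 and 21.1 CPM against 8.65, 5.53 and 12.2 CPM, and passed the filter through the selected cells. For Rgmb and Tnfrsf19 the untreated difference passed 2-fold (1.24 and 1.23 on the log2 scale) and the treated ones did not. Slc12a2, the chloride cotransporter of crypt cells, was at 819.8, 283 and 473 CPM against 509.6, 206 and 357 CPM. Ephb3, a receptor that positions cells along the crypt, differed by 1.0, 0.26 and 0.39. Its relative Ephb2 differed by 0.05, -0.13 and 0.13 and Lgr4, another R-spondin receptor, by 0.17, -0.07 and 0.26. Of the 15 tested genes of the list, these were the 2 that were not above the other cells in each library.

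Transcription factors of the list were less uniform. Ascl2, a regulator of crypt stem cells, was at 42.9, 62.3 and 35.9 CPM against 33.2, 41.7 and 34.0 CPM, and its difference at 48 h (0.08, -0.16 to 0.31) spanned 0. Sox9 was at 107, 42.6 and 27.2 CPM against 58.4, 31.6 and 26.6 CPM, so its difference of 0.88 in the untreated library was near 0 at 48 h (0.03, -0.24 to 0.30). Sp5, whose promoter window is printed above, was below the filter at 15.9, 8.28 and 7.59 CPM against 9.46, 6.14 and 5.69 CPM. Lef1, a partner of β-catenin, was low at 11.2, 1.84 and 3.37 CPM against 3.38, 0.882 and 2.05 CPM. Thinned to 5000 UMIs, Ascl2 was found in 13.6%, 19.3% and 16.4% of selected cells (43.9%, 68.4% and 30.9% without thinning), against 7.56%, 12.2% and 11.2% of the other slow-cycling cells.

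The choice of comparison cells set the size of these differences. Against the other slow-cycling cells (397, 344 and 1101 cells), 15 of 15 stem and Wnt target genes were higher in all 3 libraries and 2, Tnfrsf19 and Lrig1, were at least 2-fold higher in each, with medians of 1.09, 0.80 and 0.45. Tnfrsf19 passed the filter through the selected cells, so it had to lie higher on average. In that comparison 25 of 8705 genes (0.287%) were 2-fold higher and 68 (0.781%) 2-fold lower in all 3 libraries, while 48.5% were higher and 22.5% lower by any amount. Against the cycling cells that reached at least the lowest selected score (median scores 1.05, 0.656 and 0.786, against 1.09, 0.575 and 0.711 in the selected cells), 1 of 16 list genes was higher and 9 were lower in all 3 libraries, with medians of -0.02, -0.34 and -0.14. The background there was 8 of 8821 genes (0.0907%) 2-fold higher, 36 (0.408%) 2-fold lower, and 16.8% higher and 30.9% lower by any amount. Counted by library, 9, 15 and 13 of the 16 lay lower in the selected cells than in the cycling cells that were also high in Lgr5, Smoc2 and Axin2.

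**Figure D2:**
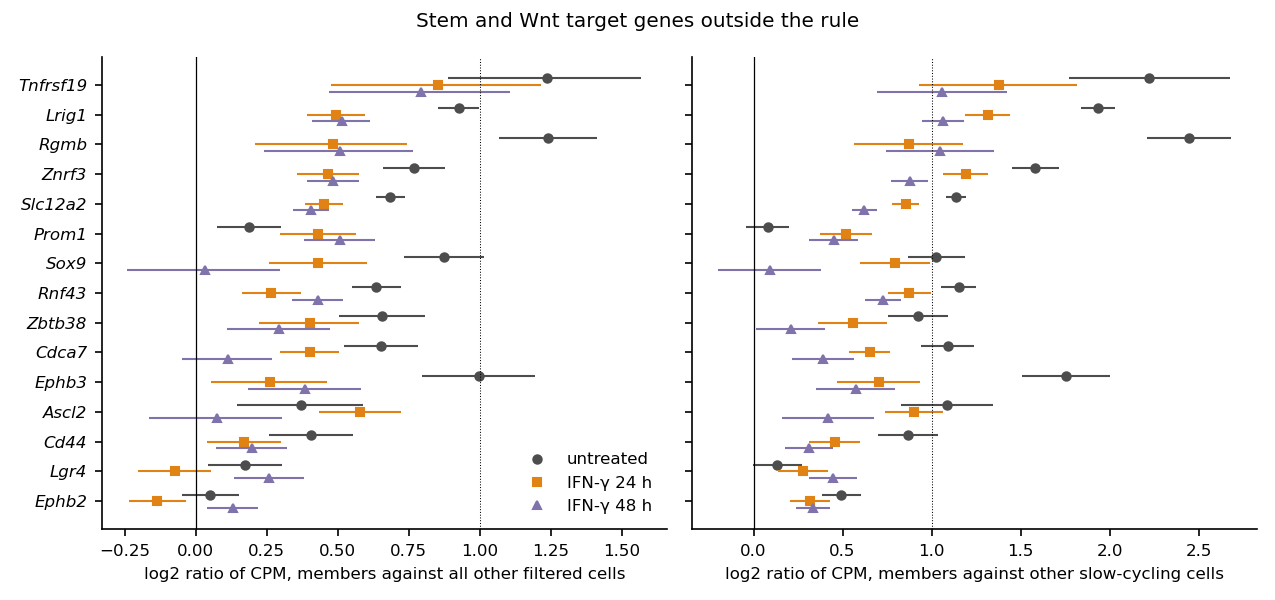
Log2 ratio of CPM for the 15 stem and Wnt target genes that passed the filter, selected cells (members) against all other filtered cells (left) and against other slow-cycling cells (right), with 95% counting intervals; the dotted line marks a 2-fold difference. Nearly all points lie above 0, most lie further right against the slow-cycling cells, and the untreated library is usually farthest.

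A list of Wnt pathway components, which also holds the Wnt targets Myc and Ccnd1, differed less. Of 24 genes, 17 passed the filter, 10 were higher and 3 lower in all 3 libraries, with medians of 0.23, 0.04 and 0.11; under TMM scaling 3 were higher and 5 lower, so several of these small differences turned with the scaling. Lrp5, a Wnt co-receptor, was at 53.9, 23.1 and 56.3 CPM against 32.8, 18.7 and 34.4 CPM, with log2 differences of 0.71, 0.31 and 0.71. Ctnnb1, which encodes β-catenin, was at 215, 127 and 132 CPM against 183, 117 and 122 CPM. Tcf7l2, the main TCF factor of the gut, was at 262, 193 and 351 CPM against 268, 219 and 339 CPM. In the Notch list 4 of 7 tested genes were higher in all 3 libraries (medians 0.49, 0.06 and 0.13; 2 of 7 under TMM scaling), among them Dtx4, a Notch pathway ubiquitin ligase, with differences of 0.98, 0.37 and 0.32. Of 10 tested BMP pathway genes 5 were higher and 4 lower (medians 0.15, 0.02 and 0.10; 1 and 5 under TMM scaling), and the 4 lower genes were the BMP and TGF-β targets Id1, Id2, Id3 and Smad7. Id1 was at 231, 271 and 165 CPM against 359.6, 409 and 223 CPM. Of 8 tested EGF pathway genes 1, Egfr, was higher and 4 were lower (0 and 5 under TMM scaling). Of the 7 that also averaged 10 CPM in the selected cells alone, 1 was higher and 3 were lower. Areg, an EGF receptor ligand, was at 38.7, 223 and 294 CPM against 140.1, 355 and 404 CPM.

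The cell cycle lists separated by phase. All 22 genes of the G2 and mitosis list were tested, and 21 were lower than in the other cells in all 3 libraries, with medians of -1.51 untreated (-1.95 to -1.12), -0.67 at 24 h (-0.92 to -0.33) and -0.58 at 48 h (-0.69 to -0.43). Nusap1, a spindle protein, was at 16.1, 35.4 and 31.8 CPM against 115, 85.1 and 60.5 CPM, and Aurkb, a mitotic kinase, at 8.5, 35.2 and 18.3 CPM against 50.8, 55.2 and 29.5 CPM. The rule selected for low Mki67 and Top2a, which are made in the same phase, so this is part of the choice. Against the other slow-cycling cells, which passed the same limit, the medians were 0.25, 0.04 and 0.27.

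The S phase list did not follow the mitotic one. Of 20 genes, 13 were higher in the selected cells of all 3 libraries and none was lower in all 3, and the medians were 0.09, 0.25 and 0.22. Under TMM scaling 8 were higher and 4 lower, with an untreated median of -0.05, and with cells scored after thinning to 5000 UMIs the untreated median was -0.09, so its direction there depended on the processing. Cdc6, which licenses replication origins, was at 34.4, 36.0 and 34.2 CPM against 20.4, 19.9 and 21.7 CPM. Mcm4, a subunit of the replicative helicase, was at 98.4, 111 and 82.0 CPM against 70.5, 79.0 and 57.6 CPM, and Pola1, the catalytic subunit of DNA polymerase α, at 169, 125 and 193 CPM against 113, 82.0 and 119 CPM. These 3 genes were higher in the selected cells of every library. Compared with the other slow-cycling cells, 20 of 20 S phase genes were higher in all 3 libraries, with medians of 0.72, 0.28 and 0.32. Against the cycling cells with a high score 7 of 20 were higher and 2 lower in all 3 libraries, with medians of -0.16, 0.10 and 0.07.

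Genes linked to cell cycle arrest or a reserve state did not rank above the other cells as a group. Of 16 tested genes of G1 and CDK inhibition 5 were higher and 7 lower in all 3 libraries (2 and 9 under TMM scaling). Of the 14 that also averaged 10 CPM in the selected cells alone, 5 were higher and 5 lower. Cdkn1a, which encodes the inhibitor p21, was at 89.7, 142 and 111 CPM against 172, 237 and 169 CPM, a log2 difference of -0.94, -0.73 and -0.61. Cdkn2d, which encodes p19, was at 4.47, 10.4 and 5.27 CPM against 21.4, 22.7 and 11.6 CPM and was 1 of the 14 genes 2-fold lower in all libraries. It passed the filter through the other cells, so it had to lie lower on average. Cdk6, a G1 kinase, was higher at 322, 236 and 469 CPM against 225, 179.8 and 336 CPM. Of 12 tested reserve and quiescence genes 3 were higher and 3 lower (medians 0.06, -0.12 and 0.08; 0 and 5 under TMM scaling). Hopx, a marker of reserve stem cells, was at 98.9, 75.6 and 55.7 CPM against 80.5, 70.6 and 55.5 CPM, and Mex3a, a marker of slowly dividing Lgr5+ cells, was below the filter at 12.5, 8.54 and 8.86 CPM against 6.11, 4.52 and 6.14 CPM, above the other cells in each library. Of 15 tested regenerative and YAP target genes 4 were higher and 8 lower, of 11 stress genes 2 and 7, of 8 epithelial genes 1 and 6, and of 3 tested nuclear RNAs 2 and 0 (3 and 8, 1 and 8, 0 and 7, and 1 and 0 under TMM scaling). Of the 13 regenerative and YAP target genes that also averaged 10 CPM in the selected cells alone, 4 were higher and 6 lower.

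Transcripts of differentiated colonocytes were low in the selected cells. Of 20 colonocyte genes 12 passed the filter, which averages selected and other cells, so a gene high in the other cells alone could pass and then had to lie lower. Of the 12, 9 also averaged 10 CPM in the selected cells alone, and those 9 were lower in all 3 libraries, 2 of them, Car1 and Cyp2c55, by at least 2-fold in each. Krt20 and Slc26a3, also 2-fold lower in each, passed through the other cells. The medians of the 12 were -1.42 untreated (-3.55 to -1.03), -1.07 at 24 h (-2.49 to -0.35) and -0.82 at 48 h (-2.57 to -0.47). They include the genes that passed through the other cells, so their size rests in part on the filter. Krt20 (chr11:99428403-99438150, minus strand), the keratin of surface colonocytes, was at 0.895, 5.39 and 2.95 CPM, from 4, 41 and 14 UMIs, against 23.7, 30.2 and 28.6 CPM. Slc26a3, the apical chloride and bicarbonate exchanger, was at 4.03, 0.526 and 1.27 CPM against 67.7, 7.96 and 11.9 CPM. Car1, a carbonic anhydrase, was at 91.7, 37.1 and 21.7 CPM against 1074, 108 and 60.3 CPM. Cyp2c55, a cytochrome P450, had 201, 3 and 0 UMIs in the selected cells. Against the other slow-cycling cells 11 of 15 tested genes were 2-fold lower in all 3 libraries, or 5 of the 9 that passed in the selected cells alone. The medians of the 15 were -2.41, -1.88 and -1.59. These include the genes that passed through the slow-cycling cells and had to lie lower, so their size rests in part on the filter. Against the cycling cells with a high score the medians were 0.15, 0.10 and 0.28.

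Secretory genes were uneven, and for several of them a few cells held most UMIs. Of 10 tested goblet cell genes 5 were lower in all 3 libraries, with medians of -0.19, -2.14 and -0.23. Of the 8 that also averaged 10 CPM in the selected cells alone, 5 were lower. The medians include genes that passed the filter through the other cells and had to lie lower, so their size rests in part on the filter. Muc2, the main gel-forming mucin, was at 142, 3.29 and 8.01 CPM against 211, 36.1 and 22.2 CPM, and in the untreated selected cells 7 of 132 cells held 90% of its UMIs. Of the 7 deep crypt secretory genes only Reg4 and Mptx1 were tested, and Reg4 was at 196, 4.07 and 1.27 CPM, of which 9 untreated cells held 90%. Tff3, a trefoil peptide of goblet cells, was more widely spread at 48 h, with UMIs in 90, 47 and 245 selected cells, of which 11, 10 and 146 held 90%. The 14 enteroendocrine genes summed to 58.4, 353 and 57.6 CPM in the selected cells against 216, 265 and 88.0 CPM in the others, and 1 cell held 92.8% of the Chgb UMIs of the 24 h selected cells. Without the 1, 4 and 2 selected cells that had at least 10 Chga and Chgb UMIs per 10000, a limit chosen after seeing the data, the sums were 35.7, 17.6 and 11.9 CPM, against 31.3, 7.41 and 9.73 CPM in the other cells filtered the same way.

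Outside the lists, the largest differences named few genes. The 4 genes at least 2-fold higher than in the other cells of all 3 libraries were Dach1, Vtcn1, Fut9 and Thbs1. Dach1 (chr14:97786853-98169765, minus strand), a transcriptional repressor, was at 167, 53.6 and 81.0 CPM against 72.3, 17.6 and 36.7 CPM, and its UMIs came from 106, 62 and 152 cells. Vtcn1 (chr3:100825459-100896922, plus strand), the immune checkpoint ligand B7-H4, was at 66.2, 10.5 and 15.4 CPM against 25.1, 4.05 and 6.78 CPM. Fut9 (chr4:25609332-25800244, minus strand), a fucosyltransferase, was at 66.7, 9.07 and 8.44 CPM against 18.2, 2.95 and 3.72 CPM. Thbs1 (chr2:118111876-118127133, plus strand), the matrix protein thrombospondin 1, was at 40.9, 5.26 and 20.2 CPM against 13.7, 2.35 and 9.18 CPM. Fut9 and Thbs1 averaged under 10 CPM in the other cells, so they passed the filter through the selected cells and had to lie higher on average. All 4 genes were at their highest in the untreated library. Thinned to 5000 UMIs, Dach1 was found in 51.5%, 23.7% and 25.7% of the selected cells and in 22.2%, 5.81% and 12.4% of the other slow-cycling cells (80.3%, 54.4% and 41.5% of the selected cells without thinning). Against the cycling cells with a high score, Dach1 differed by 0.12, 0.09 and 0.24 and Fut9 by 0.11, 0.16 and 0.11 on the log2 scale.

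The next 6 genes by the same ranking were Fstl4, Klhl24, Bcl2, Wnk2, Nav2 and Kcnb2. Bcl2, the inhibitor of apoptosis, was at 90.4, 23.7 and 45.1 CPM against 24.7, 10.2 and 23.5 CPM, with log2 differences of 1.87, 1.22 and 0.94. Nav2, a neuron navigator gene, was at 82.8, 34.4 and 83.9 CPM against 37.5, 18.3 and 45.7 CPM. Kcnb2, a potassium channel subunit, was at 102, 49.0 and 64.7 CPM, with all its UMIs in 22, 7 and 18 cells. Ranked against the other slow-cycling cells, Ror2, a receptor of Wnt5a, stood among the first 10 at 51.0, 13.5 and 33.1 CPM against 11, 5.46 and 13.2 CPM. Clca3a2 was first in that ranking at 32.2, 3.68 and 19.2 CPM against 2.56, 0.770 and 5.45 CPM, with Fut9, Cp, Rtn4rl1, Lpcat2, Thbs1, Dach1, Sorcs2 and Nav2 as the others. Clca3a2 and Ror2 averaged under 10 CPM in the other slow-cycling cells. They passed the filter through the selected cells, so their ranks follow in part from it.

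At the low end, 3 colonocyte list genes (Slc26a3, Cyp2c55 and Krt20) led, followed by Dmbt1, Car1, Sult1d1, St3gal4, Selenbp1, Itih5 and Cdkn2d. Among these, at least Slc26a3, Krt20 and Cdkn2d passed the filter through the other cells. Selenbp1, a selenium-binding protein, was at 62.9, 47.7 and 30.6 CPM against 243, 157 and 72.2 CPM. St3gal4, a sialyltransferase, was at 36.5, 32.9 and 26.8 CPM against 109.9, 89.2 and 65.0 CPM. The lowest genes against the other slow-cycling cells were largely the same kind, with Aqp8, the water channel of surface colonocytes, first at 3, 2 and 1 UMIs in the selected cells against 111, 6.38 and 4.72 CPM in the others. Aqp8 passed the filter through the other slow-cycling cells, so it had to lie lower and its rank follows in part from the filter. Cyp4f14, Myl7, Sult1b1 and Ces2c also stood among these 10.

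**Figure D3:**
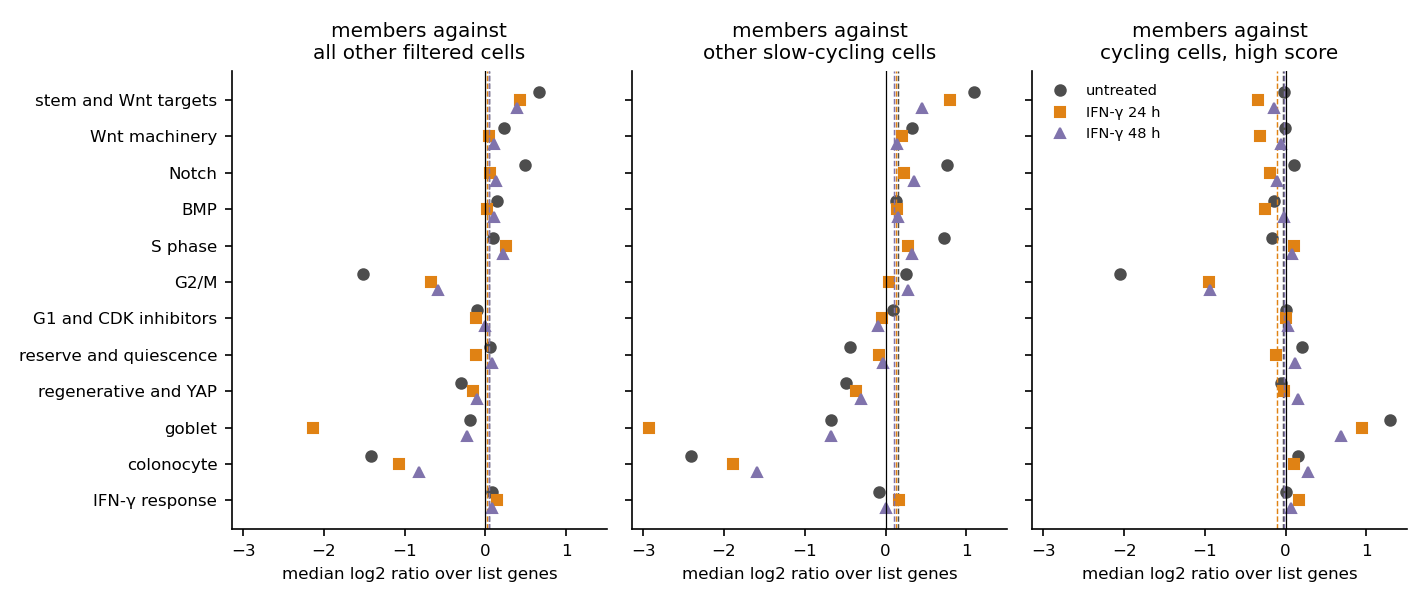
Median log2 ratio over the tested genes of 12 lists, selected cells (members) against all other filtered cells, other slow-cycling cells and cycling cells with a high score, by library; dashed lines mark the median of all tested genes. Stem and Wnt target genes lie right of the dashed lines in the first 2 panels and near or left of them in the last, colonocyte genes lie left in the first 2 panels, and G2/M genes lie left in the first and last. In the first 2 panels the colonocyte, goblet, G1 and CDK inhibitor, and regenerative and YAP medians include genes that passed the filter through the comparison cells. So do the BMP medians in the middle panel, and the Notch, G1 and CDK inhibitor, and reserve and quiescence medians in the last.

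After IFN-γ, the selected cells of each treated library were compared with the selected cells of the untreated library, over 8794 genes. At 24 h, 297 genes (3.38%) were at least 2-fold higher and 1128 (12.8%) at least 2-fold lower, and at 48 h 314 (3.57%) were higher and 441 (5.01%) lower. By any amount, 36.1% of genes were higher and 63.9% lower at 24 h, and 44.8% and 55.2% at 48 h. The median gene was at -0.23 at 24 h and -0.06 at 48 h. TMM factors raised each difference by 0.41 at 24 h and 0.21 at 48 h, which changed the counts to 803 higher and 416 lower at 24 h and 468 higher and 244 lower at 48 h, so at both times the side with more genes turned with the scaling. With only cells of 5000 to 20000 UMIs, 729 genes were higher and 1013 lower at 24 h, and 613 higher and 1358 lower at 48 h. That setting left 76 selected cells untreated, 31 at 24 h and 306 at 48 h, so its 24 h values rest on few cells. Treatment, culture and library cannot be told apart with 1 library per condition, and the limits on cycle genes and score were set within each library.

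Lgr5 was -1.31 (log2, -1.42 to -1.20) at 24 h and -0.67 (-0.78 to -0.56) at 48 h relative to untreated selected cells, and -1.57 and -0.82 in the other cells. Smoc2 was -1.60 and -0.93 in the selected cells, and Axin2 -0.83 and -0.64. Since the top 25% was taken in each library, these values describe how high that fraction reached. Among stem and Wnt target genes outside the rule, 15 of 16 tested genes were lower at 24 h and 11 of 16 at 48 h (63.9% and 55.2% of all genes), 8 and 4 of them by at least 2-fold, with medians of -0.98 (-1.33 to -0.75) and -0.27 (-1.06 to 0.09). Under TMM scaling 14 and 9 of the 16 stayed below 0, with medians of -0.57 and -0.07 (all genes 0.18 and 0.15). With cells of 5000 to 20000 UMIs alone, 31 selected cells at 24 h and 306 at 48 h, the medians were -0.45 at 24 h and -0.74 at 48 h. The order of the 2 times thus turned in that setting. The 48 h median was also lower with means over cells (-0.56) and with the score from thinned cells (-0.52). In the other filtered cells the medians were -0.63 and -0.07.

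Single stem genes took different courses. Lrig1 was -1.76 at 24 h and -1.08 at 48 h, and Rgmb -2.10 and -1.37, lower at both times. Rnf43 was -1.30 and -0.19, and Znrf3 -0.76 and 0.39, low at 24 h and near or above the untreated level at 48 h. Sox9 was -1.33 and -1.98, lower still at 48 h. Ascl2 was 0.54 and -0.26, the only 1 of the 16 tested genes of the list that was higher at 24 h (2 of 16 under TMM scaling). Slc12a2 was -1.54 and -0.79. Ephb2 was -0.80 and 0.29, near the course of Znrf3. The medians of all genes were -0.23 and -0.06.

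**Figure D4:**
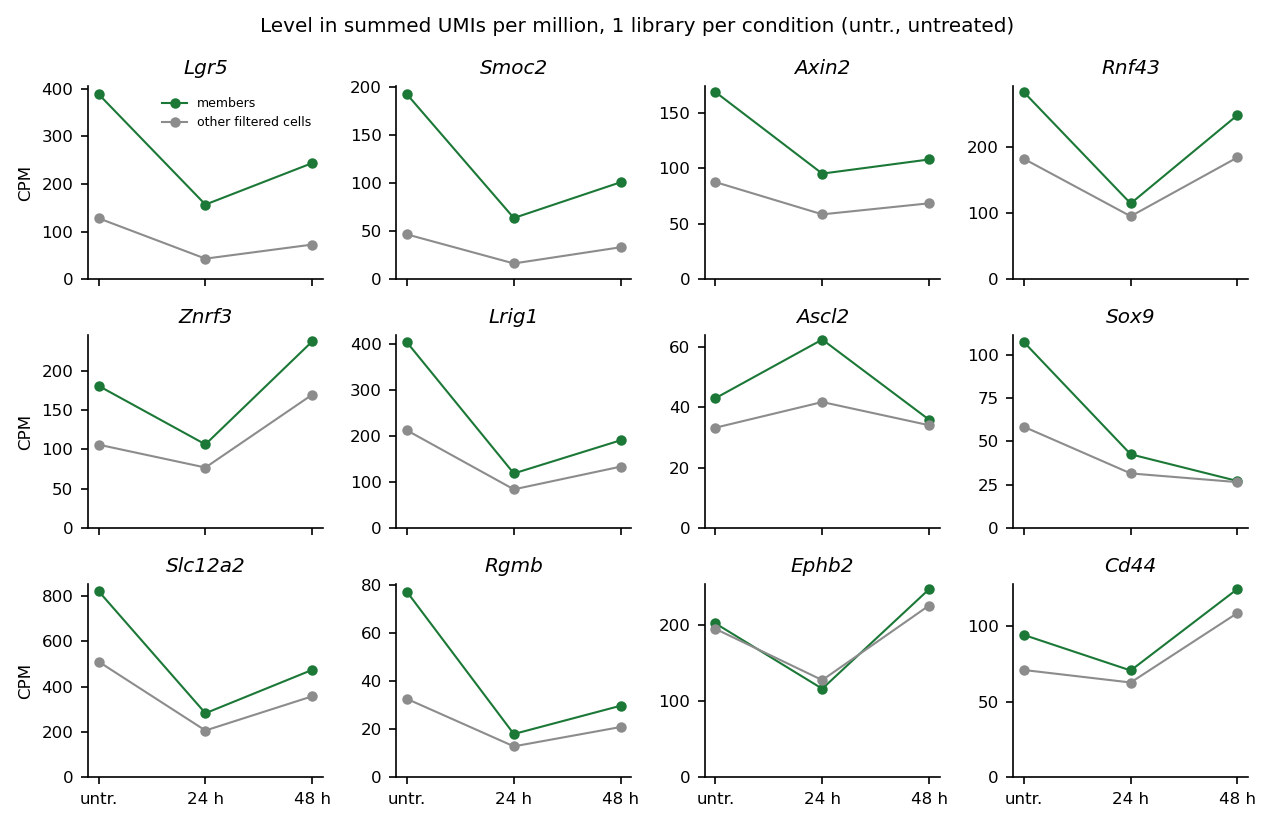
CPM of 12 stem and Wnt target genes in the selected cells (members) and in all other filtered cells of the untreated (untr.), 24 h and 48 h libraries, each point 1 library. Lgr5, Smoc2, Axin2, Lrig1, Slc12a2, Rgmb and Sox9 are highest in the untreated selected cells, Znrf3 is highest at 48 h and Ascl2 at 24 h.

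Genes of the IFN-γ response were high in the treated selected cells. All 34 genes of the list were tested, 33 were at least 2-fold higher at 24 h and 34 at 48 h, and the median log2 difference was 6.16 (4.24 to 8.37) at 24 h and 7.02 (3.99 to 8.73) at 48 h. The medians count the 9 genes with no UMI in untreated selected cells at a floor of 3 UMIs over the group. In the other cells the medians were 6.28 and 6.61. Cd74, the invariant chain of MHC class II, was at 0.671, 1470.0 and 2332 CPM, from 3 UMIs in the untreated selected cells, and its log2 differences were 11.10 (9.55 to 13.38) and 11.76 (10.22 to 14.04). Iigp1, an immunity-related GTPase, had no untreated UMI and was at 1300.4 and 1289 CPM, at least 10.92 and 10.91 higher on the log2 scale. Cxcl10, a chemokine, was at 0.671, 1188 and 751 CPM, Ubd, a ubiquitin-like modifier, at 0.224, 316 and 719.8 CPM, and Gbp2, a guanylate-binding protein, at 675 and 666 CPM from none. These 5 ranked highest in the comparison, but genes with no untreated UMI, Iigp1 and Gbp2 among them, were ranked at the bound set by the floor, so their order is not resolved.

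The response was seen in nearly all selected cells. Thinned to 5000 UMIs, Cd74 was found in 95.6% of them at 24 h (90.1 to 98.6%) and 99.7% at 48 h (98.5 to 100%), and in 0 of 132 untreated cells, which limits the cells with a UMI at that depth and not the cells that express the gene. Iigp1 was found in 100% and 98.1% (100% and 99.7% without thinning). Without thinning the Cd74 shares were 1.52%, 99.1% and 100%. Barcodes under 2000 UMIs held 905 and 1855 CPM of Cd74 in the treated libraries, so these transcripts were present outside the filtered cells too, and the part of free RNA in the shares was not tested. The 4 genes of the IFN-γ receptor and its kinases had medians of -0.61 and -0.44 (-0.20 and -0.24 under TMM scaling, with 2 of 4 genes above 0 at 24 h), with Ifngr1 at 128, 62.8 and 81.2 CPM. Within each library the response genes of the selected and the other cells lay close, with medians of 0.08, 0.15 and 0.08, or -0.06, -0.02 and -0.04 under TMM scaling, and 10 of 34 genes were higher and 1 lower in all 3 libraries (3 and 7 under TMM scaling).

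Goblet cell transcripts were lower in the treated selected cells. All 8 tested goblet genes were lower at both times, with medians of -4.24 and -2.61, against -1.83 and -2.49 in the other cells. The filter averages treated and untreated profiles. A gene high in the untreated cells alone, such as Muc2 or Spdef, could therefore pass and then had to lie lower. In the untreated selected cells 7 of 132 held 90% of the Muc2 UMIs, and 11 held 90% of those of Tff3. Muc2 was -5.43 and -4.14 and Spdef, a goblet cell transcription factor, was at 24.8, 1.31 and 4.43 CPM. The 2 tested enteroendocrine genes, Chga and Chgb, had medians of 3.21 and 0.47, but few cells held their UMIs. For Chga 1 cell held 91.5% untreated and 88.1% at 24 h, and at 48 h 3 cells held 90% of each gene. Without the cells rich in both, the sum of the enteroendocrine list turned from higher at 24 h to lower at both times (35.7 CPM untreated, 17.6 at 24 h and 11.9 at 48 h). The 5 lowest genes of the comparison were Cyp2c55, Reg4, Lyz1, Lingo2 and Creb3l1. Several rested on few untreated cells: 1 cell held 96.4% of the Lingo2 UMIs, and 2 cells held 90% of those of Lyz1, which encodes lysozyme. Creb3l1, a transcription factor of the secretory pathway, was at 67.5, 2.63 and 3.59 CPM. Of 9 tested colonocyte genes 8 were lower at 24 h and 6 at 48 h (medians -1.24 and -0.77; 6 and 6 under TMM scaling), and Lypd8 was the 1 gene at least 2-fold higher at 24 h, at 319, 658 and 452 CPM.

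The treated differences of mitotic genes were larger in the selected than in the other cells. G2 and mitosis genes were higher in 22 of 22 cases at 24 h and 20 of 22 at 48 h in the treated selected cells, with medians of 1.10 (0.69 to 1.38) and 0.82 (0.45 to 1.08), against 0.20 and -0.21 in the other cells. Aurkb and Nusap1 were among the 5 genes whose treated difference was highest in the selected relative to the other cells, at 2.05 and 1.11 against 0.12 and -0.78 for Aurkb. The limit on Mki67 and Top2a that the selected cells had to stay under was itself higher in the treated libraries (9.80 and 9.83 against 7.39 UMIs per 10000), and the part of that limit in these differences was not tested. S phase genes had medians of 0.22 and -0.00, and 0.21 and -0.02 in the other cells. Under TMM scaling the medians in the selected cells were 0.63 and 0.20, with 19 and 17 of 20 genes above 0, against 18 and 10 without it. Cdkn1a was 0.67 and 0.30, Cdkn2a, which encodes p16 and p19ARF, was 0.95 and 1.57, and Ccnd1, a G1 cyclin, 0.89 and 0.66. The G1 and CDK inhibitor list as a whole had medians of -0.03 and -0.23, or 0.38 and -0.02 under TMM scaling.

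The Notch and Wnt lists had lower medians at 24 h than at 48 h under both scalings. All 7 tested Notch genes were lower at 24 h and 6 at 48 h (medians -0.96 and -0.51; 6 and 6, with medians of -0.55 and -0.30, under TMM scaling), and Hes1, the main Notch target, was at 209, 36.4 and 31.8 CPM. Wnt pathway components had medians of -0.57 and -0.11 (-0.16 and 0.10 under TMM scaling), BMP genes -0.45 and -0.32 (-0.04 and -0.11), EGF pathway genes -1.15 and -0.91 (-0.74 and -0.71) and reserve and quiescence genes -0.91 and -0.94 (-0.50 and -0.74). Under TMM scaling the BMP list split evenly, with 5 of 10 genes on each side at both times. Of 13 tested regenerative and YAP genes 3 were higher at 24 h and 9 at 48 h (7 and 9 under TMM scaling). Ly6a, which encodes Sca-1, a marker of regenerating epithelium, was at 532, 3160.1 and 3405 CPM in the selected cells and at 942, 3494 and 3865 CPM in the others. Areg was at 38.7, 223 and 294 CPM. The 11 tested stress genes had medians of -0.38 and -0.63, with a 24 h median of 0.03 under TMM scaling, and 3 nuclear RNAs, Malat1 among them, -1.47 and -0.41. All of these have 1 library per condition behind them.

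The treated difference was compared between the selected and the other cells over 8794 genes. Of these, 59 at 24 h and 64 at 48 h had too few UMIs for a value. Among the rest, the treated difference was at least 2-fold higher in the selected cells for 49 at 24 h and 60 at 48 h. It was at least 2-fold lower for 26 and 20. The median gene lay at -0.01 and -0.004 on the log2 scale, so genes past 2-fold were few. The genes named here are the 5 at either end. Besides Aurkb and Nusap1, Car1 was -1.31 and -2.08 in the selected against -3.32 and -4.15 in the other cells. Cacna2d1 and Ptprn2 also stood at this end, with UMIs in 2, 4 and 3 and in 16, 7 and 5 selected cells. At the opposite end were Creb3l1, Ifitm1, Slc12a8, Nckap5 and Spdef. Ifitm1, an interferon-induced membrane protein, was at 7.16, 15.4 and 8.65 CPM in the selected and at 0.507, 2.99 and 5.06 CPM in the other cells, with its UMIs in 11, 6 and 20 selected cells, of which 8, 3 and 16 held 90%. Nckap5 was at 15.2, 17.3 and 34.0 CPM against 12.0, 31.7 and 59.7 CPM.

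**Figure D5:**
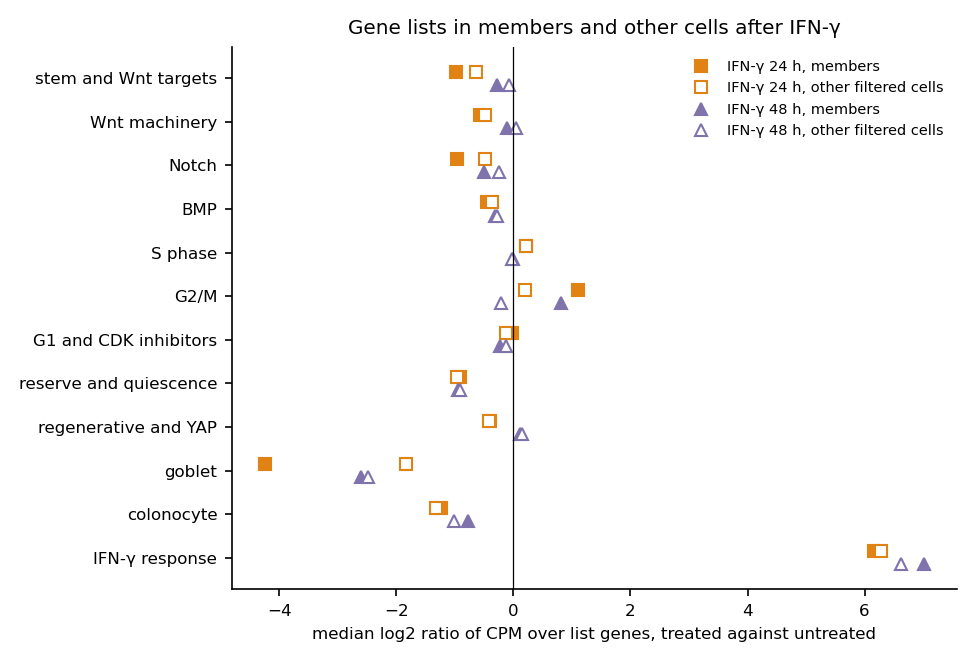
Median log2 ratio of CPM over the tested genes of 12 lists, IFN-γ treated against untreated, in the selected cells (members, filled) and in all other filtered cells (open), at 24 h and 48 h. IFN-γ response genes lie at 6.16 and 7.02 in the selected cells, goblet genes at -4.24 and -2.61 and stem and Wnt target genes at -0.98 and -0.27, and G2/M genes at 0.82 in the selected against -0.21 in the other cells at 48 h.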

How the data were processed

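Single-cell libraries of mouse colon organoids were made with droplet 3′ chemistry, and the authors deposited UMI counts per gene and barcode from Cell Ranger 6.0.1 on mm10. The annotation release is not given in the sources used here, and gene positions come from GENCODE on GRCm38. Members and gene lists were chosen with earlier results of these data known. Counts were summed over the selected and the comparison cells and scaled to UMIs per 1000000 (CPM). Genes averaging 10 CPM or more over the profiles compared were used, leaving out the 5 rule genes, and a gene was called at a 2-fold difference in all 3 libraries, or in the 1 treated library. Ratios have exact binomial intervals, shares Clopper-Pearson intervals and list medians order-statistic intervals (95%). A group with no UMI was set to a floor of 3 UMIs. Differences of treated responses needed 10 UMIs in each of the 4 sums.

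Genes were named by a rule: the 5 rule genes, genes of the lists, the 10 highest and 10 lowest against the other cells and against the other slow-cycling cells (ranked by the library nearest 0), the 5 highest and 5 lowest treated, and the 5 at either end of the response difference, passing over mitochondrial, ribosomal and unnamed genes. Which list genes serve as examples was chosen with their values known. Ddit3, whose symbol has 2 identifiers, was left out. Doublets were not called. TMM factors came from edgeR 4.0.16 (R 4.3.3), used for scaling only, and the rest from Python 3.11.15 with numpy 2.4.6, scipy 1.17.1 and pandas 2.3.3. The ratio and interval code was tested on simulated data. TMM scaling of the comparison with the other cells and leaving out cells rich in Chga and Chgb were alternatives chosen after seeing the data. The intervals cover counting error for ratios, sampling of cells for shares and spread over genes for list medians, and none covers variation between cultures.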

Additional observations from a re-analysis of the deposited data

Results flagged for a closer look

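The median log2 difference between the selected and the other filtered cells over the enteroendocrine genes tested was -1.75 untreated, 1.72 after 24 h and -0.19 after 48 h of IFN-γ. The libraries thus lay on opposite sides of 0. The list has 14 genes, of which 3 passed the filter, and with 1 library per condition the difference between libraries was not tested. In the selected cells of the 24 h library, 1 cell held 92.8% of the Chgb UMIs.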

How the results depend on the processing

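The untreated S phase median changed sign under 2 alternatives, and the order of 24 h and 48 h in the stem and Wnt target medians turned under 1 for treated against untreated selected cells (cells of 5000 to 20000 UMIs) and under 4 for selected against other cells (top 10%, TMM, the Lgr5 and Smoc2 score, and without the 5% deepest cells). The counts of genes called moved most. Against the library's other cells, 2 genes were at least 2-fold higher with a minimum of 10000 UMIs, 14 with at most 10% mitochondrial UMIs, 7 with the score from thinned cells, 39 with the top 10% by score, 7 with means over cells, 1 with a filter of 50 CPM, and 8, 8 and 23 without the untreated, 24 h and 48 h library, against 4. Those 2-fold lower numbered 3 (thinned score), 28 (top 10%), 7 (cells of 5000 to 20000 UMIs), 5 (50 CPM), 24 (TMM), and 24 and 44 without the 24 h and 48 h library, against 14. The G2/M median at 48 h was -0.71 (10000 UMIs), -0.38 (thinned score), -0.41 (5000 to 20000 UMIs) and -0.70 (TMM). The S phase median was -0.093 (thinned score) and -0.053 (TMM) untreated, and 0.10, 0.11 and 0.081 at 24 h with the thinned score, cells of 5000 to 20000 UMIs and TMM. The stem and Wnt target medians were 0.51 at 24 h and 0.63 at 48 h with the top 10%. For treated against untreated selected cells, genes higher at 24 h numbered 729 (5000 to 20000 UMIs), 140 (50 CPM) and 803 (TMM), and lower 381 (50 CPM) and 416 (TMM). At 48 h, 613 (5000 to 20000 UMIs) and 113 (50 CPM) were higher, and 735 (means over cells), 1358 (5000 to 20000 UMIs), 116 (50 CPM) and 244 (TMM) lower, against 468 higher (TMM). The stem and Wnt target median at 24 h was -0.45 (5000 to 20000 UMIs) and -0.62 (TMM, with the filter applied on that scale), and at 48 h -0.74 (5000 to 20000 UMIs), -0.56 (means over cells) and -0.52 (thinned score), against -0.27. The cause was not tested. No paired analysis was possible because each condition has 1 library and the labels give no replicate numbers. Sums over cells weight deep cells, the libraries differ in depth, and at 48 h most selected cells hold under 20000 UMIs (83.6%). The setting of 5000 to 20000 UMIs kept 76 selected cells untreated, 31 at 24 h and 306 at 48 h.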
